A study of Homo sapiens with 3 samples.

Results

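The shallow cells described here were the kept OVCAR3 cells with fewer than 5000 unique molecular identifiers (UMIs, the tags that count captured RNA molecules). A cell was kept when it had more than 1000 detected genes, at most 20% of its UMIs on mitochondrially encoded genes, and a ratio of log10 genes to log10 UMIs above 0.8. Shallow cells numbered 806 of 7531 kept cells in the DMSO library, 1015 of 10215 in the RAC1i library and 885 of 8239 in the Combo library, or 2706 of 25985 in all. Each was set against the mid-depth cells of its own library, kept cells of 20000 to 40000 UMIs, which numbered 3372, 3889 and 3266. The contrast of depth was the one that chose the cells, so no test was made of it and every ratio below is a description.

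OVCAR3 is an established line from a high grade serous carcinoma of the ovary, and the 3 libraries asked how its cell states respond to inhibitors. DMSO treated cells received vehicle alone for 48 h, RAC1i cells received NSC23766, an inhibitor of the small GTPase RAC1, and Combo cells received NSC23766 together with GSK126, an inhibitor of the histone methyltransferase EZH2. Both inhibitors were dissolved in DMSO, all cells came from the same line, and all were detached with trypsin before loading on the droplet instrument. There was 1 library per treatment, so treatment and library cannot be told apart, and the library with the EZH2 inhibitor alone was not analysed here.

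In droplet sequencing, a barcode with few UMIs may hold a small cell, a cell that has lost part of its RNA, a nucleus, or a poorly captured cell. The compartments of the cell carry different RNAs. MALAT1, NEAT1 and KCNQ1OT1 are long noncoding RNAs that stay in the nucleus, the mitochondrially encoded mRNAs stay inside mitochondria, mRNAs of membrane and secreted proteins are translated at the endoplasmic reticulum, and mRNAs of ribosomal proteins, glycolytic enzymes and proteasome subunits lie free in the cytosol. A high mitochondrial share is widely used as a sign of damaged cells.

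The shallow cells made up 10.7% of kept cells in DMSO (exact Clopper-Pearson 95% interval 10.0 to 11.4%), 9.94% in RAC1i (9.36 to 10.5%) and 10.7% in Combo (10.1 to 11.4%), and held 1.37% to 1.43% of the UMIs of kept cells. Their median depth was 3316, 3229 and 3257 UMIs and their median number of genes was 1426, 1392 and 1389. Their summed UMIs came to 2722147, 3365319 and 2934826. Intervals printed with values cover counting error only. Of all barcodes, 29 or 30 were shared by each pair of libraries, and 0 shallow barcodes were shared. Levels are given as CPM, the usual scaled share of a gene among all UMIs of its class, and ratios of CPM are of shallow over mid-depth cells, for genes with at least 50 CPM in one of the classes. When the 6 sums were scaled by edgeR's trimmed mean of M values (TMM), every log2 ratio moved by 0.18 in DMSO, by -0.84 in RAC1i and by -0.89 in Combo, and with DESeq2 size factors by 0.30, -0.31 and -0.40. The median over all genes tested was 0.09, -0.16 and -0.15 in CPM, and list medians are given beside it. In what follows, values in threes are in the order DMSO, RAC1i, Combo, and list medians and signed ratios are log2. A log2 ratio changes sign with the scaling where it lies closer to 0 than the shift and on the side from which the shift moves it. Leaving mitochondrial UMIs out of the totals moved the medians by only -0.07, 0.08 and 0.09.

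The 3 genes taken as markers of shallow cells, PLCG2, KCNQ1OT1 and MALAT1, were higher in them in both treated libraries, and 2 of the 3, KCNQ1OT1 and MALAT1, were lower in DMSO. MALAT1 (chromosome 11, 65497640 to 65508073, plus strand, GRCh38) stood at 9682 CPM in shallow against 26212 CPM in mid-depth DMSO cells. In RAC1i it stood at 25272 against 13501 CPM, and in Combo at 44628 against 15431 CPM. The ratio was therefore 0.369 (95% interval 0.365 to 0.374) in DMSO, 1.87 (1.86 to 1.88) in RAC1i and 2.89 (2.88 to 2.91) in Combo, which are opposite directions. With TMM the log2 values were -1.26, 0.07 and 0.64, so that the treated levels were then hardly or less than 2-fold higher. In CPM, mid-depth levels of MALAT1 also differed between libraries, and shallow RAC1i cells were near mid-depth DMSO cells.

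KCNQ1OT1, an imprinted antisense noncoding RNA (chromosome 11, 2597308 to 2700003, minus strand), showed the same split. It had 66.5 CPM in shallow against 265 CPM in mid-depth DMSO cells, a ratio of 0.251 (0.216 to 0.290). In the treated libraries it was higher in shallow cells, at 589 against 52.3 CPM in RAC1i (ratio 11.3, 10.7 to 11.9) and 739 against 65.0 CPM in Combo (11.4, 10.8 to 11.9). The label therefore described shallow cells of RAC1i and Combo, and the DMSO cells are called here by their depth alone.

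PLCG2, which encodes phospholipase C gamma 2 (chromosome 16, 81779279 to 81962685, plus strand), had the highest ratios of the 3. It stood at 4872 against 106 CPM in RAC1i (ratio 46.2, 45.1 to 47.3) and at 4167 against 75.9 CPM in Combo (54.9, 53.3 to 56.5). In DMSO it stood at 88.2 against 21.3 CPM, a ratio of 4.15. Of the 240 PLCG2 UMIs in DMSO shallow cells, however, 188 lay in 1 cell, and only 15 cells held any. Without that cell the DMSO level was 19.1 CPM and the ratio 0.898. In the treated libraries many more cells carried it, 721 of 1015 in RAC1i and 648 of 885 in Combo, and there too it was uneven: the 5% of shallow cells with most PLCG2 held 56.4% and 50.5% of its UMIs.

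**Figure D1:**
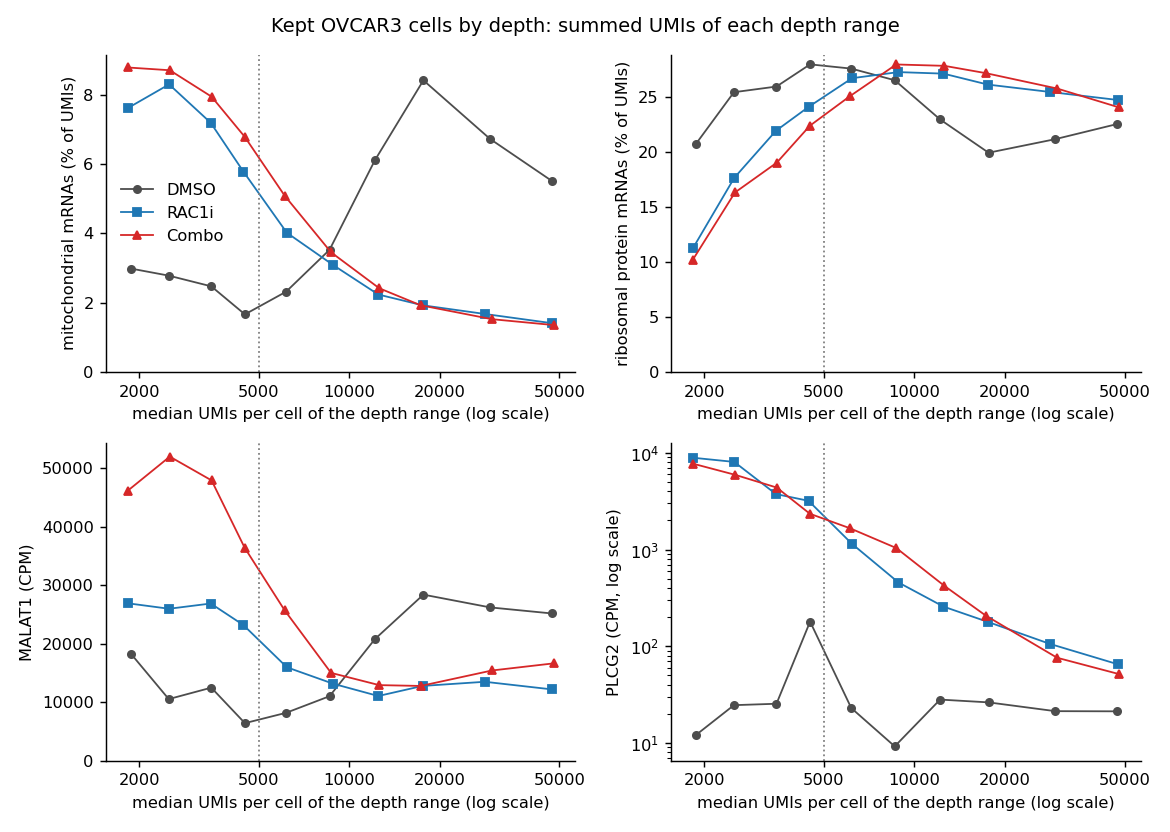
Kept cells of each library in 10 depth ranges, as the share or CPM of their summed UMIs against median UMIs per cell (log scale); the dotted line is the 5000 UMI limit of the shallow cells and each point is 1 range of 1 library. Mitochondrial mRNA and MALAT1 levels are low in DMSO and high in RAC1i and Combo to the left of the line, and the PLCG2 point of DMSO between 4000 and 5000 UMIs (180 CPM) holds the 1 cell with 188 UMIs.

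The plot of levels by depth showed changes over many depth ranges, not only at the limit. In RAC1i, PLCG2 went from 8923 CPM in cells under 2000 UMIs through 3196 CPM at 4000 to 5000 UMIs and 257 CPM at 10000 to 15000 UMIs to 65.1 CPM above 40000 UMIs. The mitochondrial share of the same ranges went from 7.62% through 5.79% and 2.24% to 1.41%. In DMSO the low mitochondrial share carried on past the limit, with 2.32% at 5000 to 7500 UMIs and 3.53% at 7500 to 10000 UMIs, and reached its highest value of 8.42% at 15000 to 20000 UMIs. Just inside the limit, cells of 4500 to 5000 UMIs had median mitochondrial shares of 0.886%, 4.33% and 6.07% in the order DMSO, RAC1i, Combo. Just outside it, cells of 5000 to 5500 UMIs had 0.895%, 3.76% and 4.20%. From inside to outside, KCNQ1OT1 went from 342 to 161 CPM in RAC1i and from 476 to 298 CPM in Combo. PLCG2 went from 2531 to 1115 CPM in RAC1i but rose from 1713 to 2263 CPM in Combo. MALAT1 was lower outside in every library, and NEAT1 in DMSO went from 1724 to 474 CPM.

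Mitochondrially encoded mRNAs, which code for subunits of the respiratory chain, also stood on opposite sides in DMSO and the treated libraries. They made up 2.24% of the UMIs of shallow against 6.72% of mid-depth cells in DMSO. In RAC1i the shares were 6.98% and 1.68%, and in Combo 7.75% and 1.53%. The mid-depth cells thus differed between libraries too, and the share of shallow RAC1i cells was near that of mid-depth DMSO cells. In DMSO, 10 of the 12 members with at least 50 CPM were at least 2-fold lower, where 9.87% of all genes tested were, and 0 were higher. In RAC1i and Combo all 13 members were at least 2-fold higher, where 13% and 16.2% of all genes tested were. With TMM 11 of 13 were in RAC1i, MT-CO1 and MT-CO2 being short of 2-fold, and all 13 in Combo. The median log2 ratios of the list were -1.54, 2.26 and 2.47. MT-CO2, a catalytic subunit of cytochrome c oxidase, stood at 3471 CPM in shallow against 12174 CPM in mid-depth cells of DMSO, 14539.5 against 4262 CPM in RAC1i and 15469.7 against 3589 CPM in Combo. MT-ND6, which is encoded on the other strand of the mitochondrial genome from the other members, differed from them in DMSO, at 308 against 312 CPM, and had the highest ratios of the list in the treated libraries, 11.0 in RAC1i and 10.5 in Combo.

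The mitochondrial limit of 20% bore on the DMSO direction. It removed 137 DMSO cells that had under 5000 UMIs and over 1000 genes, against 82 in RAC1i and 98 in Combo. In the removed DMSO cells mitochondrial mRNAs made up 43.9% of UMIs, ribosomal protein mRNAs 4.77%, and MALAT1 stood at 89189 CPM, NEAT1 at 26343 CPM and KCNQ1OT1 at 915 CPM. Without the limit, the DMSO median of mitochondrially encoded mRNAs was 0.46 on the log2 scale instead of -1.54, MALAT1 was at -0.16 instead of -1.44 and KCNQ1OT1 at -0.31 instead of -1.99. In RAC1i and Combo the values without the limit kept their sign and stayed past 2-fold for mitochondrial mRNAs and KCNQ1OT1. The DMSO values thus describe the shallow cells that the limit left, and the part of RNA quality in the other ratios was not tested.

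Nuclear noncoding RNAs followed MALAT1. The list median was -1.56, 0.86 and 1.34, over 6 of 12 members with at least 50 CPM, among them MALAT1 and KCNQ1OT1 themselves. Without the mitochondrial limit the DMSO median was -0.35 and NEAT1 in DMSO -0.61, both short of 2-fold, and with TMM the treated medians were 0.03 and 0.45. NEAT1, the scaffold of nuclear paraspeckles, stood at 2609 CPM in shallow against 10214 CPM in mid-depth cells of DMSO, 4616 against 3004 CPM in RAC1i and 5739 against 2598 CPM in Combo. Its RAC1i value of 0.62 on the log2 scale was below 0 under TMM. TUG1 had log2 ratios of -0.97, 0.21 and 0.56 and OIP5-AS1 of -0.19, 0.82 and 1.04, of which both values of TUG1 and the RAC1i value of OIP5-AS1 were below 0 under TMM. mRNAs known to keep introns in the nucleus had medians of -0.29, 0.64 and 0.62, and both treated medians were below 0 under TMM. In this list PNN, a splicing-associated protein, was at least 2-fold higher in both treated libraries (1.28 and 1.45; with TMM 0.44 and 0.56, so that both calls ended), whereas SRSF11, also a splicing factor, was at least 2-fold lower (-1.24 and -1.10).

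Ribosomal protein mRNAs made up 26.5% of UMIs of shallow against 21.2% of mid-depth cells in DMSO. In RAC1i the shares were 21.3% and 25.5%, and in Combo 19.3% and 25.8%. In DMSO all 79 members were above a ratio of 1, with a median of 0.33 on the log2 scale and 0 past 2-fold. In RAC1i 23 were above and in Combo 17, with medians of -0.37 and -0.54, and 14 and 20 members were at least 2-fold lower, where 16.8% and 18.8% of all genes tested were. The members did not share 1 direction in the treated libraries. RPSA, a protein of the small subunit, stood at 775 against 2329 CPM in RAC1i and 695 against 2171 CPM in Combo, while RPL38, of the large subunit, stood at 5644 against 2893 CPM and 5576 against 3038 CPM. The log2 ratios of the named members in RAC1i and Combo were -1.59 and -1.64 for RPSA, -1.40 and -1.44 for RPL7, 0.90 and 0.65 for RPL32, and 0.96 and 0.88 for RPL38. Under TMM the Combo values of RPL32 and RPL38 were below 0. Many of these genes have near-identical processed copies in the genome, so their UMIs are uncertain where reads map to several places.

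Several other lists of mRNAs translated in the cytosol went with the ribosomal proteins. Others did not, among them the chromatin regulators and immediate early genes described below. Nuclear-encoded subunits of the respiratory chain had a median of 0.48 in DMSO, with 71 of 75 above a ratio of 1. In RAC1i and Combo the medians were -0.55 and -0.79, with 23 and 28 of 72 members at least 2-fold lower, where 16.8% and 18.8% of all genes tested were. The medians of nuclear- and of mitochondrially encoded subunits therefore stood on opposite sides within each library, which in DMSO held only with the mitochondrial limit. SDHD, an anchor subunit of complex II, stood at 87.8 CPM in shallow against 54.1 CPM in mid-depth cells of DMSO, 15.2 against 68.6 CPM in RAC1i and 16.7 against 74.6 CPM in Combo. NDUFA3, an accessory subunit of complex I, was an exception, at 435 CPM in shallow against 228 CPM in mid-depth cells of DMSO, 448 against 179 CPM in RAC1i and 504 against 233 CPM in Combo.

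Proteasome subunits had medians of 0.39, -0.94 and -1.09, and 0, 12 and 16 of 31 members were at least 2-fold lower, where 9.87%, 16.8% and 18.8% of all genes tested were. PSMB5, a catalytic subunit, stood at 304 against 279 CPM in DMSO and at 56.8 against 225 CPM in RAC1i. Glycolytic enzymes had medians of 0.24, -1.11 and -1.16 over the 9 of 16 members that passed 50 CPM. PGK1, which makes ATP in glycolysis, stood at 467 against 396 CPM in DMSO, 80.5 against 303 CPM in RAC1i and 90.3 against 309.7 CPM in Combo. Translation factors had medians of 0.19, -0.55 and -0.59, and BTF3, a factor of the nascent chain complex, had log2 ratios of -1.64 and -1.87 in the treated libraries. Cytoskeletal genes had medians of 0.35, -0.86 and -0.93, again with an exception: TMSB10, which binds actin monomers, was higher in shallow cells, with log2 ratios of 0.46, 1.08 and 0.96.

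**Figure D2:**
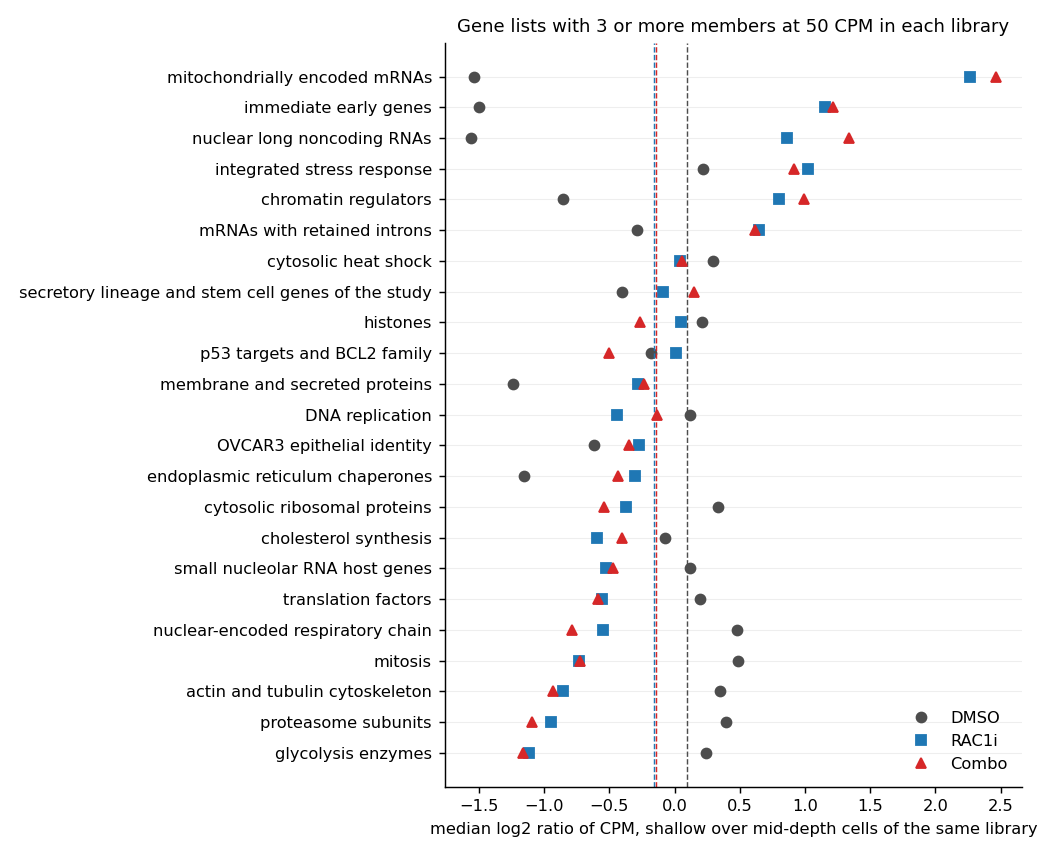
Median log2 ratio of CPM of shallow over mid-depth cells for the gene lists that had at least 3 members with 50 CPM in every library; circles are DMSO, squares RAC1i and triangles Combo, and dashed lines are the medians over all genes tested (0.09, -0.16 and -0.15). DMSO lies on the far side of the treated libraries for mitochondrially encoded mRNAs, nuclear noncoding RNAs, immediate early genes and, in the other direction, ribosomal, respiratory, proteasome and glycolysis genes.

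mRNAs of membrane and secreted proteins were low in the DMSO shallow cells. The list median was -1.24, -0.28 and -0.24, and 29 of 35 members that passed were at least 2-fold lower in DMSO, where 9.87% of all genes tested were. In RAC1i 4 of 28 and in Combo 5 of 30 were, near the 16.8% and 18.8% of all genes tested. With TMM the medians were -1.06, -1.11 and -1.13, so the lower value of DMSO did not remain, and without the mitochondrial limit the DMSO median was -0.96. CP, the secreted ferroxidase ceruloplasmin, stood at 109 CPM in shallow against 366 CPM in mid-depth cells of DMSO, 47.8 against 63.7 CPM in RAC1i and 58.9 against 48.1 CPM in Combo. The cell adhesion protein CDH6 stood at 265 against 609.6 CPM in DMSO and was low in both classes of the treated libraries, at 43.7 against 25.2 CPM in RAC1i, a ratio below 1 under TMM. MUC16, which carries the CA125 antigen, and LAMA5, a laminin chain, were at least 2-fold lower in DMSO (-1.27 and -1.18) and at least 2-fold higher in RAC1i (1.27 and 1.21) and Combo (2.00 and 1.54). Without the mitochondrial limit the DMSO values were only -0.08 and -0.10, and with TMM the RAC1i values were 0.44 and 0.38 and that of LAMA5 in Combo 0.64, so these calls did not remain.

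Chaperones of the endoplasmic reticulum had medians of -1.16, -0.31 and -0.43, and 9 of 14 members were at least 2-fold lower in DMSO, where 9.87% of all genes tested were. With TMM the medians were -0.98, -1.14 and -1.32, and without the mitochondrial limit that of DMSO was -0.98, so it was then short of 2-fold. HSP90B1, the reticulum's HSP90, stood at 136 CPM in shallow against 381 CPM in mid-depth cells of DMSO, 351 against 266 CPM in RAC1i and 320.0 against 268 CPM in Combo, with both treated ratios below 1 under TMM. PDIA6, a disulfide isomerase, was lower in shallow cells of every library at -1.20, -0.86 and -1.16. Cytosolic heat shock genes had medians of 0.30, 0.04 and 0.06, of which both treated medians were below 0 under TMM, and the inducible HSPA1A had log2 ratios of 0.17, 1.69 and 1.31. With TMM the treated values of HSPA1A were 0.86 and 0.42.

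At least 2-fold lower in shallow cells of all 3 libraries were 17 of 2356 genes tested (0.722%). They were SLC3A2, UPK1B, RPN2, HACD3, HLA-C, TRAM1, ZMPSTE24, CD47, CD9, HSD17B12, DDOST, PRDX4, KDELR1, TUSC3, HIST1H4C, CD81 and EMC7. All but the histone gene HIST1H4C encode proteins of membranes or of the endoplasmic reticulum, a grouping made after their values were seen. RPN2, DDOST and TUSC3 are subunits of the oligosaccharyltransferase, which glycosylates new proteins, and TRAM1, EMC7 and KDELR1 act in insertion into, or retrieval to, the reticulum. RPN2 stood at 111 CPM in shallow against 335 CPM in mid-depth cells of DMSO, 87.4 against 226 CPM in RAC1i and 85.2 against 205 CPM in Combo. CD9, CD81 and UPK1B are tetraspanins, proteins with several membrane passes. CD9 stood at 385 CPM in shallow against 858 CPM in mid-depth cells of DMSO, 127 against 447 CPM in RAC1i and 109 against 489.9 CPM in Combo. SLC3A2, the heavy chain of amino acid transporters, stood at 76.4 CPM in shallow against 194 CPM in mid-depth cells of DMSO, 190.5 against 500.3 CPM in RAC1i and 178 against 519 CPM in Combo. HLA-C reads may be shared with other HLA genes. With TMM 9 of the 17 remained past 2-fold in all 3 libraries, CD47, CD81, CD9, DDOST, EMC7, KDELR1, PRDX4 and TUSC3 being short of it, and with DESeq2 size factors 5 did.

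PLCG2 alone was at least 2-fold higher in all 3 libraries, 1 of 2356 or 0.0424%, and that count was 0 without the DMSO cell that held 188 of its UMIs. The genes next to it had lower ratios in DMSO. ROMO1, a small mitochondrial membrane protein, had linear ratios of 1.86 (1.76 to 1.96), 2.30 and 1.84. EIF5B, which joins the ribosomal subunits, stood at 267 CPM in shallow against 179 CPM in mid-depth cells of DMSO, 818 against 283 CPM in RAC1i and 893 against 314 CPM in Combo. The others named by the same rule, LINC01899, PFDN6, SNRPF, BOLA3, HMGB3, PET100, SMIM22 and NSRP1, had linear ratios between 1.49 and 2.09 in DMSO. Under TMM, ROMO1, LINC01899, PFDN6, SNRPF, BOLA3, SMIM22 and NSRP1 were below a ratio of 1 in Combo, and SNRPF, BOLA3 and NSRP1 also in RAC1i. In DMSO alone 8 of 3121 genes were at least 2-fold higher (0.256%).

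**Figure D3:**
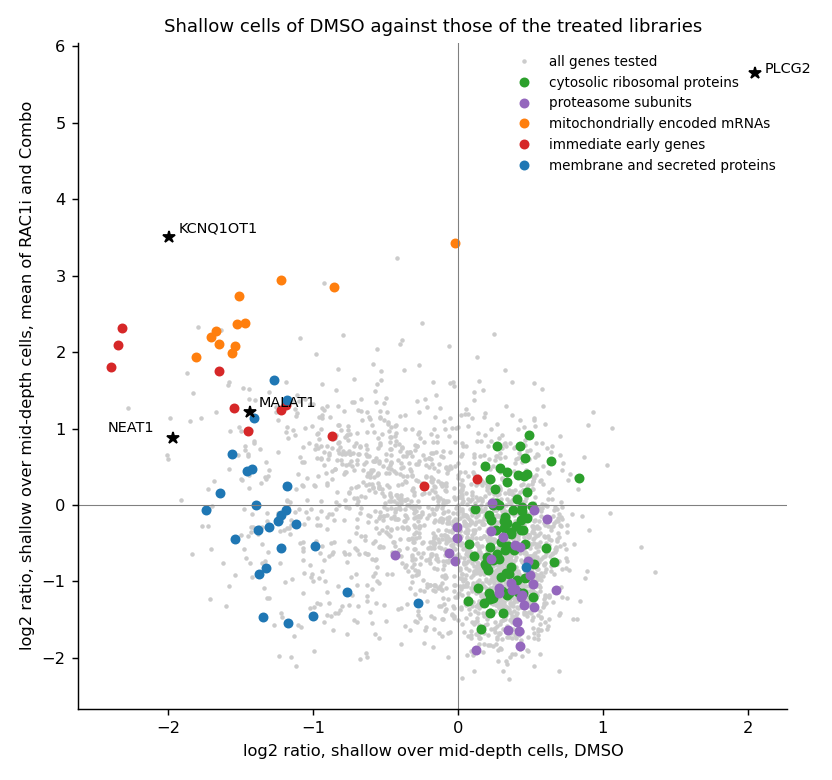
Each of the 2356 genes tested in all libraries by its log2 ratio of shallow over mid-depth cells in DMSO (x axis) and by the mean of its ratios in RAC1i and Combo (y axis); colours mark 5 gene lists and stars 4 named genes. Mitochondrially encoded mRNAs and immediate early genes lie mostly at the upper left, ribosomal protein and proteasome genes at the right, and PLCG2 stands apart at the upper right.

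Gene by gene, the 2 treated libraries resembled each other and DMSO did not. Across the 2356 genes the ratios had a Pearson correlation of 0.97 between RAC1i and Combo, -0.34 between DMSO and RAC1i and -0.42 between DMSO and Combo. Genes are not independent replicates and the value carries no p. Genes at least 2-fold lower in DMSO and at least 2-fold higher in both treated libraries numbered 46 (1.95%), and 0 genes did the reverse, where only 8 of 3121 genes were at least 2-fold higher in DMSO at all. By direction alone, at any size, 458 genes (19.4%) were lower in DMSO and higher in both treated libraries and 1078 (45.8%) the reverse. With TMM the counts at 2-fold were 13 and 7, and without the mitochondrial limit 12 and 0, with correlations of -0.16 and -0.23 between DMSO and the treated libraries. With no minimum CPM, over 14766 genes, the counts were 994 and 3 and these correlations only -0.03 and -0.08. Of the 46, 10 are mitochondrially encoded. Others are the immediate early genes FOS, FOSB, JUN, JUNB, CCN1 and CCN2 and the genes of very large proteins AHNAK, MACF1, DYNC1H1, AKAP9 and MUC16, named after their values were seen.

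Immediate early genes, which respond within minutes to stress or growth signals, had medians of -1.50, 1.15 and 1.21. In DMSO 9 of 12 members that passed were at least 2-fold lower, and in RAC1i and Combo 10 of 17 and 10 of 18 were at least 2-fold higher. The shares over all genes tested were 9.87% lower in DMSO and 13% and 16.2% higher in RAC1i and Combo. With TMM the treated medians were 0.31 and 0.32, below 2-fold. JUN, a subunit of the AP-1 transcription factor, stood at 62.5 CPM in shallow against 196 CPM in mid-depth cells of DMSO, 735 against 197 CPM in RAC1i and 739.7 against 241 CPM in Combo. FOSB stood at 12.1 CPM in shallow against 60.6 CPM in mid-depth cells of DMSO, 78.7 against 16.7 CPM in RAC1i and 69.5 against 13.2 CPM in Combo. Chromatin regulators had medians of -0.85, 0.80 and 0.99, with all 20 members that passed below a ratio of 1 in DMSO and all 24 above it in RAC1i and Combo, although the RAC1i median was below 0 under TMM. ASH1L, a histone methyltransferase, stood at 44.8 CPM in shallow against 73.9 CPM in mid-depth cells of DMSO, 313 against 140.4 CPM in RAC1i and 361 against 124 CPM in Combo.

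Several stress genes were higher in shallow than in mid-depth cells of the treated libraries without being lower in DMSO, but the summed metallothioneins were not highest in the shallow cells of Combo. The metallothionein MT2A, which binds zinc and copper, stood at 168 CPM in shallow against 129 CPM in mid-depth cells of DMSO, 21033 against 5904 CPM in RAC1i and 24296 against 9211 CPM in Combo. MT1X stood at 60.2 CPM in shallow against 55.7 CPM in mid-depth cells of DMSO, 5103 against 1710.1 CPM in RAC1i and 7027 against 2698 CPM in Combo. MT2A was thus 21033 CPM in shallow RAC1i cells against 168 CPM in shallow DMSO cells, a ratio of 126 (115 to 138), and the same ratio in mid-depth cells was 45.7 (44.9 to 46.5). With TMM, an alternative added after the data were seen, these were 72.3 and 53.2, and with DESeq2 size factors 107 and 59.2. For Combo over DMSO it was 145 (132 to 159) in shallow and 71.3 (70.1 to 72.6) in mid-depth cells, but with TMM it was 80.7 and 83.4, so that the higher ratio in shallow cells did not remain, and with DESeq2 size factors it was 117 and 93.2. The list passed 50 CPM with 2, 3 and 4 of its 8 members and had medians of 0.24, 1.58 and 1.14. With TMM the treated medians were 0.74 and 0.24. In Combo, MT2A was at 26260 CPM in kept cells of 5000 to 10000 UMIs, above its level in shallow cells, and metallothioneins made up 3.43% of UMIs there against 3.19% in shallow cells. Against cells of 10000 to 20000 UMIs the Combo median of the list was 0.10 and MT2A was at 0.46, both short of 2-fold. MT1A, MT1E, MT1G, MT1H and MT1M had 0 UMIs in DMSO shallow cells, which allows up to 1.10 CPM each, and between 1.19 and 69.9 CPM in shallow cells of RAC1i and Combo. MT1F was at 39.3 CPM in shallow against 24.2 CPM in mid-depth cells of DMSO, 444 against 348 CPM in RAC1i and 482 against 507 CPM in Combo, and the family's members resemble one another in sequence.

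NFKBIA, the inhibitor that NF-kB induces as its own feedback, stood at 126 CPM in shallow against 106 CPM in mid-depth cells of DMSO, 4431 against 876 CPM in RAC1i and 3957 against 899 CPM in Combo. The ratio of shallow cells of RAC1i over those of DMSO was 35.2 (31.6 to 39.3), against 8.25 (8.08 to 8.41) in mid-depth cells, and with TMM 20.3 against 9.60. TNFAIP3, another feedback inhibitor, was at 211 against 63.2 CPM in RAC1i and 153 against 47.7 CPM in Combo. The secreted products of the same pathway differed among themselves. The cytokine IL6 stood at 96.0 against 131 CPM in RAC1i and 50.1 against 79.7 CPM in Combo, and the chemokine CXCL1 at 373 against 426 CPM and 219 against 279 CPM, both lower in shallow cells. CXCL8 was at 43.7 against 32.1 CPM in RAC1i, a ratio below 1 under TMM, and at 6.81 against 16.9 CPM in Combo. TNF, NFKB2 and NFKBIZ had linear ratios between 1.95 and 2.67 in the treated libraries. CXCL2, CXCL3 and BIRC3 were under 50 CPM in every class, with BIRC3 at 17.2 against 3.84 CPM in RAC1i, CXCL2 at 36.3 against 16.8 CPM and CXCL3 at 46.9 against 22.5 CPM. The NF-kB subunit NFKB1 stood at 60.6 against 53.4 CPM in RAC1i and 58.9 against 39.6 CPM in Combo, both ratios below 1 under TMM. CCL20, ICAM1, RELB and LIF were under 50 CPM in every class. In RAC1i they stood at 8.02 against 7.27, 19.9 against 17.8, 25.9 against 16.1 and 11.6 against 8.98 CPM, and in Combo CCL20 was lower in shallow cells, at 4.77 against 5.55 CPM. With no minimum CPM the median log2 ratio over all genes was itself 0.88 in RAC1i and 0.97 in Combo. Ratios of genes under 50 CPM are to be read beside those medians. The list had medians of 0.25, 1.18 and 1.13 over 1, 8 and 8 of 18 members. With TMM the treated medians were 0.35 and 0.24, short of 2-fold. IL1A and IL1B had at most 1 UMI in shallow cells of any library.

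**Figure D4:**
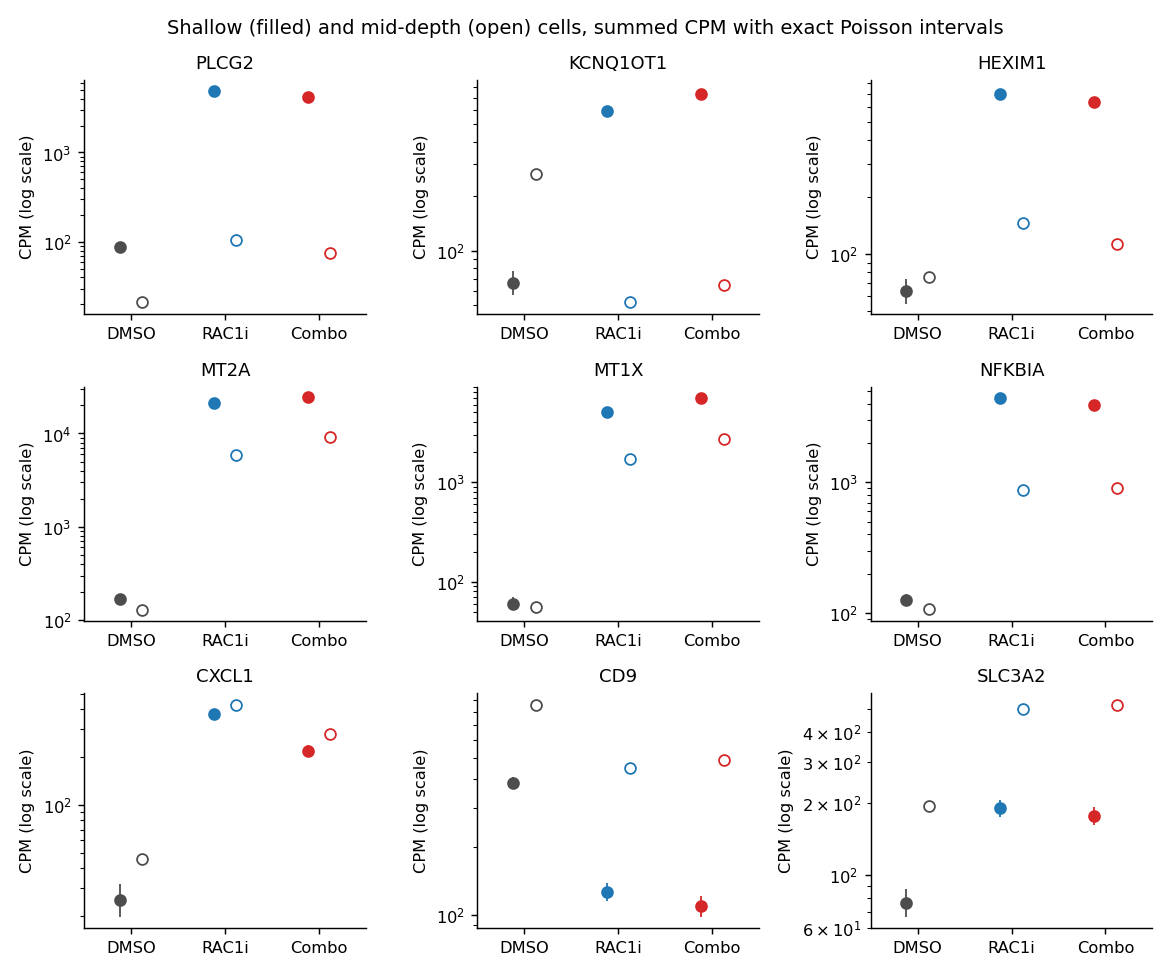
CPM (log scale) of 9 genes in shallow (filled) and mid-depth (open) cells of each library, with exact Poisson 95% intervals that cover counting error only and are often smaller than the points. PLCG2, HEXIM1, MT2A, MT1X and NFKBIA are higher in shallow than in mid-depth cells of RAC1i and Combo, KCNQ1OT1 is higher there and lower in DMSO, and CD9 and SLC3A2 are lower in shallow cells of all 3 libraries.

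The study's clusters 6 and 7 were defined on these samples together with others, so their top genes are no independent evidence of a direction. All 10 top genes of cluster 7 were at least 2-fold higher in shallow cells of RAC1i and Combo, with medians of 3.34 and 3.22, and the median in DMSO was -0.42 over 7 members. The shares over all genes tested were 13% and 16.2% higher in RAC1i and Combo. Without the mitochondrial limit the DMSO median was 0.32, on the same side as the treated libraries. HEXIM1, the inhibitor of the transcription elongation factor P-TEFb, stood at 63.9 CPM in shallow against 76.0 CPM in mid-depth cells of DMSO, 703 against 145 CPM in RAC1i and 636 against 113 CPM in Combo. The noncoding RNA AL627171.2 stood at 8.45 CPM in shallow against 23.7 CPM in mid-depth cells of DMSO, 763 against 67.5 CPM in RAC1i and 1012 against 77.5 CPM in Combo, and AC108134.2 and AL355075.4 had 2 UMIs each in shallow DMSO cells and 198 to 266 CPM in those of RAC1i and Combo. FLG had log2 ratios of -0.57, 1.16 and 1.81. With TMM its treated values were 0.33 and 0.92, and 9 of the 10 genes were then past 2-fold in both treated libraries. MTRNR2L12, a nuclear gene nearly identical to the mitochondrial 16S rRNA, stood at 96.6 CPM in shallow against 129.7 CPM in mid-depth cells of DMSO, 924 against 98.9 CPM in RAC1i and 1440.0 against 152 CPM in Combo, and its UMIs may include mitochondrial transcripts. The list of such nuclear copies had medians of -0.42, 2.81 and 3.10 over 1, 3 and 3 of 11 members. The DMSO value is that of MTRNR2L12 alone, and without the mitochondrial limit it was 1.03, past 2-fold higher. All 10 top genes of cluster 6, among them MALAT1, NEAT1, CP, SCD, MUC1, MT-CO1, MT-CO2 and MT-CO3, were at least 2-fold lower in shallow DMSO cells, where 9.87% of all genes tested were, and the medians were -1.55, 1.34 and 1.82. Of the 8 that passed 50 CPM in each treated library, only 4 in RAC1i and 6 in Combo were at least 2-fold higher, where 13% and 16.2% of all genes tested were. Without the mitochondrial limit the DMSO median was -0.46. SCD, a fatty acid desaturase, stood at 182 against 407 CPM in DMSO and 63.0 against 61.3 CPM in RAC1i.

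Cell cycle genes gave mixed values. Mitosis genes had medians of 0.48, -0.74 and -0.72, and within the list CENPF (-0.69, 1.07 and 1.43) and CDK1 (0.62, -1.55 and -1.62) ran opposite ways in every library. DNA replication genes had medians of 0.12, -0.45 and -0.14, with RRM2 at -0.05, 1.08 and 1.20 and PCLAF at 0.54, -1.10 and -1.01. Histones had medians of 0.21, 0.05 and -0.27, the RAC1i median being below 0 under TMM, with H2AFX at 0.33, 1.47 and 1.11 and HIST1H4C at -1.72, -1.37 and -1.08.

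The remaining lists held few members past 2-fold in DMSO. Genes of the integrated stress response had medians of 0.22, 1.02 and 0.91 over 4, 6 and 7 of 16 members, and CEBPB stood at 214 CPM in shallow against 194 CPM in mid-depth cells of DMSO, 735 against 227 CPM in RAC1i and 627 against 214 CPM in Combo. With TMM the treated medians were 0.19 and 0.02, and the treated log2 ratios of CEBPB were 0.86 and 0.66. The list of p53 targets and BCL2 family members had medians of -0.18, 0.01 and -0.50 over 5, 3 and 3 of 19, and MCL1, which protects from apoptosis, had log2 ratios of -1.19, 0.80 and 1.12, and under TMM the RAC1i values of the list and of MCL1 were below 0. Host genes of small nucleolar RNAs had medians of 0.11, -0.53 and -0.47, with SNHG25 at 0.53, 1.63 and 1.57 and SNHG7 at 0.13, -1.50 and -1.54. Cholesterol synthesis genes had medians of -0.07, -0.59 and -0.40, and the DMSO median was above 0 under TMM. Of the study's secretory lineage and stem cell genes, the stem cell factor SOX2 stood at 56.9 CPM in shallow against 75.4 CPM in mid-depth cells of DMSO, 80.8 against 15.0 CPM in RAC1i and 50.1 against 14.5 CPM in Combo. PAX8, a factor of the tubal lineage, stood at 215 CPM in shallow against 363 CPM in mid-depth cells of DMSO, 46.7 against 56.5 CPM in RAC1i and 38.5 against 49.4 CPM in Combo. The surface protein CD24 stood at 613 CPM in shallow against 443 CPM in mid-depth cells of DMSO, 128 against 235 CPM in RAC1i and 125 against 210.0 CPM in Combo. ALDH1A1, with 80, 8 and 5 UMIs in shallow cells, was under 50 CPM in every class, at 29.4 CPM in shallow against 21.8 CPM in mid-depth cells of DMSO, 2.38 against 2.35 CPM in RAC1i and 1.70 against 2.19 CPM in Combo. SIRT7 stood at 31.6 against 44.6 CPM in DMSO, both under 50 CPM, and had log2 ratios of 0.09 and 0.15 in RAC1i and Combo, both below 0 under TMM. OVGP1, also under 50 CPM throughout, had 0 UMIs in shallow DMSO cells and stood at 14.6 against 10.1 CPM in RAC1i, a ratio below 1 under TMM, and at 18.4 against 7.58 CPM in Combo. Its log2 ratios were 0.52 and 1.28, where the median over all genes with no minimum CPM was 0.88 and 0.97. The list medians were -0.40, -0.09 and 0.15. The DMSO median was below 0 in all 11 alternative settings, but that of RAC1i was below 0 in only 7 of 11 and that of Combo above 0 in only 3 of 11, so these have no stable sign.

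The shallow cells carried the epithelial markers of the line. The 14 markers summed to 5349, 2536 and 2483 CPM in shallow and 4834, 2515 and 2786 CPM in mid-depth cells, with medians of -0.62, -0.28 and -0.35. Most members that passed 50 CPM were below a ratio of 1, namely 7 of 11, 5 of 9 and 5 of 8. With TMM the treated medians were -1.11 and -1.25, past 2-fold lower. The 17 markers of blood, endothelial and stromal cells summed to 6.61, 61.5 and 70.9 CPM in shallow and to 8.67 to 13.0 CPM in mid-depth cells. No member of that list reached 50 CPM, 13, 4 and 6 of the 17 had 0 UMIs in shallow cells, and their part in the other ratios was not tested.

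Within a library the shallow cells varied widely. In DMSO 616 of 806 (76.4%, 73.3 to 79.3%) had MALAT1 under 0.5% of their UMIs, 36 had 0.5 to 1% and 154 had 1% or more, whereas only 6.29% of mid-depth DMSO cells were under 0.5%. These ranges are cuts through a continuous share, with 22 and 11 shallow DMSO cells within 0.1 points of the limits at 0.5% and 1%. The 616 cells had median mitochondrial and ribosomal protein shares of 0.834% and 27.8%. The 154 cells had 5.42% and 19.8%, near the 6.84% and 20.4% of mid-depth cells in the same MALAT1 range. Their median depths were 3442 and 2982 UMIs.

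The treated libraries had few such cells. Shallow cells with MALAT1 under 0.5% were 16.6% of RAC1i (14.3 to 19.0%) and 12.5% of Combo (10.4 to 14.9%), fewer than the 28.0% and 22.7% of their mid-depth cells. Those with 1% or more were 58.7% and 71.2%. A mitochondrial share under 2% was found in 68.2% of shallow DMSO cells, 10.8% of RAC1i and 11.8% of Combo, and one over 10% in 4.34%, 25.9% and 33.2%.

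**Figure D5:**
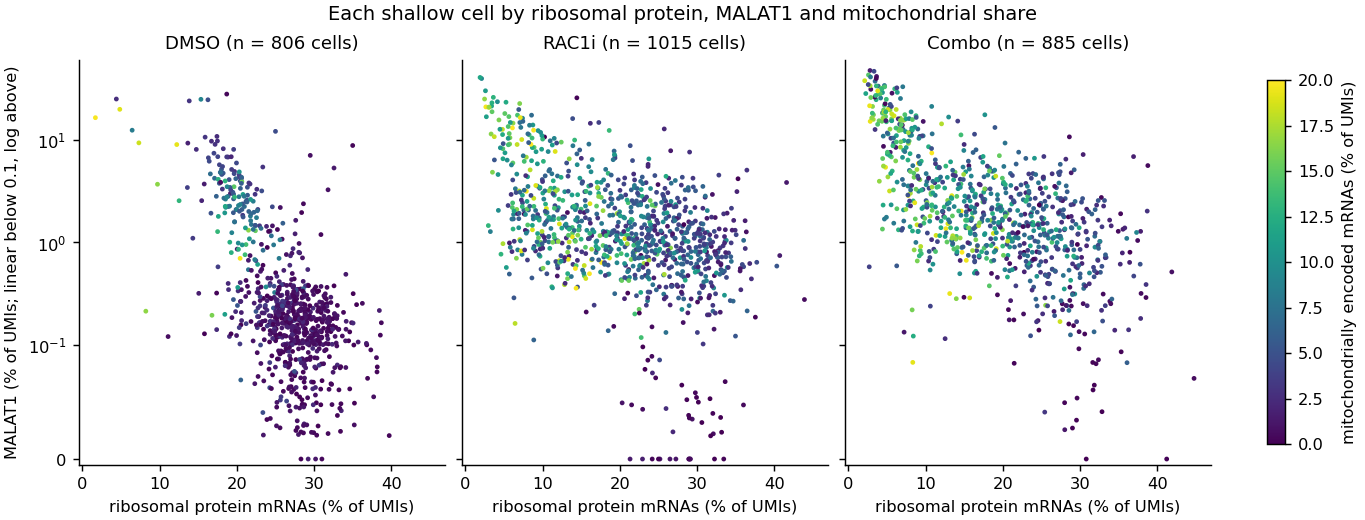
Every shallow cell of each library by the share of its UMIs on ribosomal protein genes (x axis) and on MALAT1 (y axis, linear below 0.1% and log above), coloured by the share on mitochondrially encoded mRNAs. Most DMSO cells lie at the lower right, with MALAT1 under 0.5% and few mitochondrial UMIs, and the RAC1i and Combo cells spread from there to a group at the upper left with under 10% ribosomal protein UMIs.

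The per-cell plot showed a gradient from ribosomal protein to nuclear and mitochondrial RNA in all 3 libraries. Over shallow cells, Spearman's rho between ribosomal protein share and MALAT1 share was -0.56, -0.47 and -0.63, and between ribosomal protein and mitochondrial share -0.57, -0.51 and -0.51. Over mid-depth cells the same values were -0.42, -0.52 and -0.55, and -0.36, -0.40 and -0.33. All shares of a cell have the same total, which by itself pulls them apart, and no p is given. Cells with under 10% ribosomal protein UMIs were 0.868%, 16.8% and 24.1% of shallow cells in the same order. Their MALAT1 stood at 125690, 78650 and 135647 CPM, the DMSO value resting on 7 cells. At 10 to 20% ribosomal protein UMIs it stood at 48058, 26076 and 28755 CPM. MT2A was lowest where MALAT1 was highest: in cells with under 10%, 10 to 20% and 20 to 30% ribosomal protein UMIs it stood at 7024, 20474 and 25610 CPM in RAC1i and at 5170, 25232 and 33045 CPM in Combo. In cells with 30% or more it was lower again, at 22443 CPM for RAC1i and 28834 for Combo. PLCG2 differed between the treated libraries. Over the same ranges it was 10697, 6723 and 2976 CPM in RAC1i, and 3585, 6958 and 2854 CPM in Combo, with 2002 and 2313 CPM at 30% or more, and Spearman's rho between PLCG2 and MALAT1 was -0.04 and -0.08.

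At an equal depth of 2000 UMIs drawn at random per cell, shallow cells still held fewer genes than mid-depth cells. Their medians were 993, 992 and 988 genes, and those of mid-depth cells 1071, 1035 and 1023. Thinning left out 45, 57 and 65 shallow cells. Without mitochondrial UMIs the gap stayed in DMSO, at 996 against 1117, but was 1031 against 1039 in RAC1i and 1034 against 1025 in Combo. The limit of 1000 genes removes shallow cells with few genes, so these medians are of the cells it left.

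At the same thinned depth, PLCG2 had a UMI in 60.8% (57.6 to 63.9%) of shallow against 12.5% (11.5 to 13.6%) of mid-depth RAC1i cells and in 65.0% (61.6 to 68.3%) against 10.6% (9.59 to 11.7%) of Combo cells. In DMSO it had one in 1.31% (0.632 to 2.40%) of shallow cells against 135 of 3372 mid-depth cells (3.37 to 4.72%). Unthinned shares were 1.86%, 71.0% and 73.2% of shallow cells and 42.8%, 65.1% and 67.0% of mid-depth cells. NEAT1 had a UMI in 40.7% of shallow against 98.6% of mid-depth DMSO cells after thinning, and without thinning in 53.1% against 99.7%. CD9 had one in 43.5%, 17.1% and 15.6% of shallow against 79.6%, 55.6% and 57.4% of mid-depth cells, and without thinning in 56.8%, 26.2% and 24.3% against 99.9%, 99.4% and 99.4%. All cells were of 1 line, so no cell type that lacks these genes was at hand to measure free RNA, and its part in these shares was not tested.

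The ratios also differed with transcript length, in opposite directions. Of the 2356 genes, 2353 matched GENCODE 44. Among the 586 genes with the shortest canonical transcripts (295 to 1299 bases) the median log2 ratios were 0.38, -0.61 and -0.78, and among the 585 with the longest (4452 to 43816 bases) -0.46, 0.13 and 0.27. Spearman's rho with length was -0.58, 0.33 and 0.43 across 2341 nuclear genes, against 0.05, 0.10 and 0.05 with GC content. Protein-coding genes had medians of 0.13, -0.42 and -0.43 and the 34 noncoding genes -0.32, 0.08 and 0.17. Under TMM the treated medians of the longest group and of the noncoding genes were below 0.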

How the data were processed

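OVCAR3 cells of 3 treatments were profiled with a 10x Genomics single-cell 3' kit. The authors deposited a filtered matrix of UMI counts per gene and barcode for each library, made with Cell Ranger 4.0.0 and GRCh38 per the labels; the counts are raw and were not normalized. Here cells were filtered as stated in the report, UMIs were summed over shallow and over mid-depth cells of each library, and CPM and log2 ratios were computed for genes reaching 50 CPM in either class. A class with 0 UMIs was set to 3 counts. With 1 library per treatment no test was possible; "at least 2-fold" is a call by size. Intervals are 95% and exact (Clopper-Pearson for shares, Poisson for counts, conditional for ratios). The members, markers and gene lists were chosen with earlier results of these data known. Genes named are the 3 markers, the 12 with the highest minimum and the 12 with the lowest maximum ratio over the libraries, the top 10 of the study's clusters 6 and 7, all metallothionein, NF-kB and secretory lineage list members, and up to 4 of each other list; others are said to be chosen later. Thinning used 1 random draw. Doublets were not called. Gene positions and lengths came from GENCODE 44, with 36366 of 36601 IDs matched by ID. Alternatives used edgeR 4.0.16 and DESeq2 1.42.0 scaling factors only. Python 3.11.15 with numpy 2.4.6 and scipy 1.17.1 was used, and the ratio and its interval were run on simulated Poisson counts. Those counts follow the model of the interval and hold no clustering of UMIs by cell. They check the computation only and not the intervals of the real sums.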

Additional observations from a re-analysis of the deposited data

Results flagged for a closer look

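Shallow cells of DMSO and of both treated libraries lay past 2-fold on opposite sides for 3 gene lists, beside the list of the 3 markers itself, and for 1 of those markers. The median log2 ratio of mitochondrially encoded mRNAs was -1.54, 2.26 and 2.47 in the order DMSO, RAC1i, Combo. That of immediate early genes was -1.50, 1.15 and 1.21. That of the top genes of the study's cluster 6, which were chosen on these samples, was -1.55, 1.34 and 1.82, and KCNQ1OT1 stood at -1.99, 3.49 and 3.51. With 1 library per treatment the difference was not tested, and several of these calls rest on the processing. Without the mitochondrial limit the DMSO values were 0.46 for mitochondrially encoded mRNAs, -0.46 for cluster 6 genes and -0.31 for KCNQ1OT1, none of them 2-fold lower, and -1.43 for immediate early genes. With TMM the treated medians of immediate early genes (0.31 and 0.32) and of cluster 6 genes (0.50 and 0.93) were below 2-fold.

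Barcodes under 5000 UMIs that were removed for having too few genes, with at most 20% mitochondrial UMIs, were used in no comparison above. They numbered 935 in DMSO, 761 in RAC1i and 669 in Combo. In them PLCG2 stood at 8524 CPM (RAC1i) and 7699 CPM (Combo) against 74.0 CPM in DMSO. KCNQ1OT1 stood at 1166 and 854 CPM against 91.0 CPM, and MALAT1 at 51217 CPM in Combo and 26639.8 CPM in RAC1i against 14865 CPM in DMSO.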

How the results depend on the processing

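As means over the 3 libraries, MALAT1, KCNQ1OT1, PLCG2 and the 4 list medians named below moved by less than the SD between libraries under every alternative, except that ribosomal proteins averaged -0.71 with TMM against -0.19; that SD is wide because DMSO and the treated libraries differ in sign. Leaving out 1 library in turn gave means of -0.27 to 1.22 for MALAT1, 0.75 to 3.50 for KCNQ1OT1, 3.79 to 5.65 for PLCG2, 0.36 to 2.36 for mitochondrially encoded mRNAs, -0.46 to -0.02 for ribosomal proteins, -0.35 to 1.10 for nuclear noncoding RNAs and -0.76 to -0.26 for membrane and secreted proteins. Within libraries, 205 of 210 values past 2-fold kept their sign under each alternative except the one that left out 1 DMSO cell and 90 stayed past 2-fold under all. Without the mitochondrial limit the DMSO values of the mitochondrial list (0.46), MT-CO1 (0.45), MT-CO2 (0.46), MT-CO3 (0.51) and MT-ND5 (0.32) were above 0. Without the DMSO cell richest in PLCG2, an alternative chosen after seeing the data, PLCG2 in DMSO was at -0.15.

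Genes at least 2-fold higher in all 3 libraries numbered 1, and 0 under 3000 UMIs or without that cell, 4 without the mitochondrial limit and 360 with no minimum CPM; leaving out a library gave 1 to 367. Genes at least 2-fold lower numbered 17, and 10 against cells of 10000 to 20000 UMIs, 43 with TMM (9 of the 17 among them) and 42 with no minimum CPM; leaving out a library gave 19 to 489. Genes lower in DMSO and higher in both treated libraries numbered 46, and 13 with TMM, 22 with DESeq2 factors and 12 without the mitochondrial limit. With no minimum CPM they numbered 994 of 14766. Those higher in DMSO and lower in both numbered 7 with TMM, 12 with DESeq2 factors and 3 with no minimum CPM. Of genes past 2-fold in RAC1i, 43.6% were higher with CPM, 7.05% with TMM and 20.5% with DESeq2 factors. In Combo these shares were 46.2%, 6.77% and 18.8%, and in DMSO 2.53%, 9.73% and 27.9%. With no minimum CPM they went the other way, to 88.7% in RAC1i and 88.2% in Combo, and were 25.6% in DMSO. The share of shallow cells was 11.6%, 7.61% and 7.51% of kept cells at a mitochondrial limit of 10%, and 11.8%, 10.6% and 11.8% with none. No paired analysis was possible because each treatment has 1 library. Depth limits the sums: 3 counts are 0.891 to 1.10 CPM in shallow cells.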
